A study of Drosophila melanogaster with 4 samples.

Results

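Isolated H3K27ac regions are enriched stretches that stand alone on the chromosome, with at least 15 kb free of any other listed region on each side. They were chosen from the list that the authors made for the replicate set, on the arms 2L, 2R, 3L, 3R, 4 and X, and each also shares at least 1 bp with a region of replicate 1 or replicate 2. The first and last region of each arm were left out. This gave 369 isolated regions among 6168 enriched regions on these 6 arms (5.98%), and among 6270 in the whole list. All values below come from whole wild-type Oregon-R larvae in their 3rd instar, a mixture of many tissues, in which DNA bound by histone H3 acetylated at lysine 27 was recovered with a rabbit polyclonal antibody and sequenced. There were 2 ChIP replicates, with 5501 and 5426 regions, and 2 input samples, which were not analysed here. Whether the replicates are separate collections of larvae is not in the labels, so the spread between them may be technical. The lists hold no read counts, so the depth is unknown.

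Acetylation of H3 at lysine 27 marks nucleosomes beside active promoters and enhancers and is written by CBP/p300 acetyltransferases, in Drosophila by the protein Nejire. The same lysine carries the methyl mark of Polycomb repression, and both marks cannot sit on a single histone tail. Drosophila genes lie close together, and marked regions often follow each other at short distance. A marked region with no listed neighbour is therefore a separate unit in such a list, whereas regions in a row may be pieces of a longer active stretch. The build is FlyBase release 5, and no gene is named because the gene table at hand follows another release.

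The distance to the next region set these regions apart from the others by choice, and the values here describe that choice. The median gap between neighbours on the 6 arms was 4380 bp, and 1390 of 6162 gaps (22.6%) reached 15 kb. Around isolated regions, the shorter of both gaps had a median of 24953 bp and quartiles of 18.4 and 39.1 kb, and the longer gap had a median of 57.8 kb. The setting was often lopsided, since 99 isolated regions (26.8%) had a longer gap of at least 3 times the shorter. Both gaps reached 50 kb for 59 regions and 100 kb for 10 regions. Measured from neighbour to neighbour, the stretches that hold isolated regions made up 35.3 Mb, which is 29.3% of the 6 arms, and the isolated regions filled 4.65% of that length.

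Few replicate regions lay in these flanks, but this is no independent check, because the list of the set describes the same ChIP samples. It is also the longer list, with 6168 regions on the 6 arms, beside 5431 in replicate 1 and 5359 in replicate 2. The share of replicate regions that lie outside the set was not counted. Replicate 1 had 2 regions that reached within 15 kb of an isolated region without overlapping it, and replicate 2 had 1. Of the 339 isolated regions found in replicate 1, 326 (96.2%) matched a region that had 15 kb free on both sides in its own list. The same held for 304 of 326 (93.3%) in replicate 2, and for 268 regions in both lists. The lists of single replicates held further isolated regions, 149 in replicate 1 and 163 in replicate 2, that match no isolated region of the set.

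Isolated regions ranged from weak and narrow to strong and broad, without reaching the highest scores and widths of the list. Their widths ran from 1075 bp to 53.6 kb, with a median of 2883 bp and quartiles of 2061 and 4799 bp. The authors' score, on a log2 scale whose zero is not explained, ran from 0.049 to 2.18, with a median of 0.64 and quartiles of 0.37 and 1.11. In whole larvae, a low score from few marked cells cannot be told apart from one due to little mark per cell. For the other 5799 regions the median was 3085 bp in width and 0.62 in score, so the median score of isolated regions was 0.023 higher.

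The choice of comparison mattered, because isolated regions had to be found in a replicate and 840 of the others were not. Among the 4959 other regions that were found in a replicate, the median width was 3609 bp and the median score 0.73, both above those of isolated regions. Within the list of each replicate, the median width was 2809 ± 3.89 bp for isolated regions and 3294 ± 66.5 bp for the others, and the median score was 0.77 ± 0.032 and 0.86 ± 0.017 (SD, n = 2). The difference in score was -0.13 in replicate 1 and -0.057 in replicate 2, and the difference in width was -535 bp and -436 bp. Both replicates thus placed isolated regions lower, though the 2 score differences themselves lay apart by more than the smaller of them. These measures share their data with the choice of the regions, so no test was made.

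At equal width, the scores of isolated regions were close to those of the others or above them. Above 2000 bp and up to 4000 bp, the class with most isolated regions, 160 of them had a median score of 0.60 beside 0.58 in 1995 others found in a replicate. Above 4000 and up to 8000 bp the medians were 1.05 (94 isolated) and 1.00 (1324 others). Above 8000 bp they were 1.44 (36 isolated) and 1.30 (903 others). At 2000 bp or less, 79 isolated regions had a median of 0.28 beside 0.29 in 737 others. Across regions, width and score had a Spearman rho of 0.84 among the 369 isolated regions and of 0.81 among the 4959 others, with both measures taken from the same list.

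**Figure D1:**
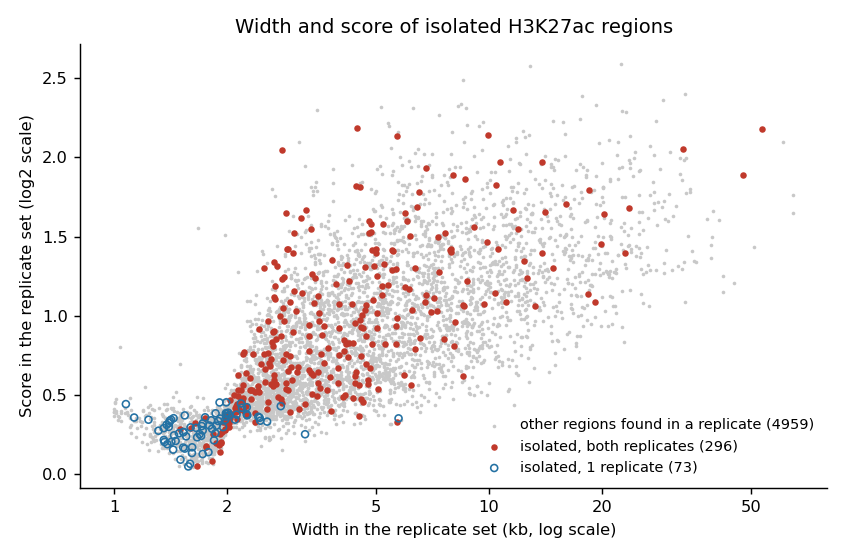
Width on a log scale (kb) against log2 score in the list of the replicate set, where grey points are 4959 other regions found in a replicate, red points are 296 isolated regions found in both replicates, and open blue points are 73 found in 1 replicate. Isolated regions reach 2.18 in score and 53.6 kb in width, where the grey points reach 2.59 and 64877 bp, and those found in 1 replicate lie at scores up to 0.45.

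Broad isolated regions were few. A width of 10 kb or more was reached by 25 isolated regions (6.78%), where 10.7% of all regions on the arms reached it, and all 25 were found in both replicates. Their scores ran from 1.06 to 2.18 with a median of 1.55. Regions without long gaps on both sides were also mostly found in both replicates at such scores. Their share was 99.7% at scores from 0.78 to 1.17 and 99.0% above that. The arms X and 3R held 7 each, 2R held 6, 2L held 3, and 3L and 4 held 1 each. Among the highest 10% of scores on the arms, from 1.44 upward, 42 were isolated, which is 11.4% of isolated regions beside 10.0% of all regions.

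Most isolated regions were found in both replicates. Of the 369, 296 (80.2%, 95% Wilson interval 75.8 to 84.0) overlapped a region of both replicates, 43 of replicate 1 alone and 30 of replicate 2 alone. Over all 5328 regions found in either replicate, 83.5% were found in both, and over all 6168 regions 86.4% were found in either and 72.1% in both. The 4959 others gave 83.7% (82.7 to 84.7), so the shares differed by -3.51 percentage points, with a 95% Newcombe interval from -7.99 to 0.38. With a minimum gap of 20 kb the difference was -6.50 percentage points (77.3% and 83.8%). It was -4.34 with 10 kb and -3.43 with 30 kb, so it did not grow steadily with the gap. These intervals cover counting error only, and the membership rule itself asks for 1 replicate.

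The regions found in 1 replicate were weak and narrow. Those in replicate 1 alone had a median width of 1599 bp in the set, and their replicate 1 scores ran from 0.13 to 0.63 with a median of 0.46. Those in replicate 2 alone had a median width of 1790 bp, and their replicate 2 scores ran from 0.21 to 0.68 with a median of 0.49. For the 296 found in both, the median score was 0.88 in each replicate. Among isolated regions of 2000 bp or less, 22 of 79 (27.8%) were found in both replicates, beside 173 of 737 others (23.5%). The narrowest region was 1001 bp in the set and 1301 bp in each replicate list. Whether this lowered the support of narrow regions was not tested.

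Replicate support followed the score in isolated and other regions alike. All 444 regions with both gaps of 15 kb or more, whether or not a replicate listed them, were set beside the 5724 regions without such gaps, in 5 classes of the score that hold 20% of all regions each. In the lowest class, up to 0.35, 23.5% (16.8 to 31.9) of the regions with long gaps and 20.2% (17.9 to 22.6) of the others were found in both replicates. In the next class the shares were 44.9% and 46.0%, and in the middle class 92.4% and 95.7%. In the class above they were 100% (72 of 72) and 99.7%, and in the highest, from 1.17, 97.6% and 99.0%. The Wilson intervals of both kinds overlapped in each class. Of isolated regions, 21.7% were in the lowest class, beside 14.0% of the other regions found in a replicate.

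**Figure D2:**
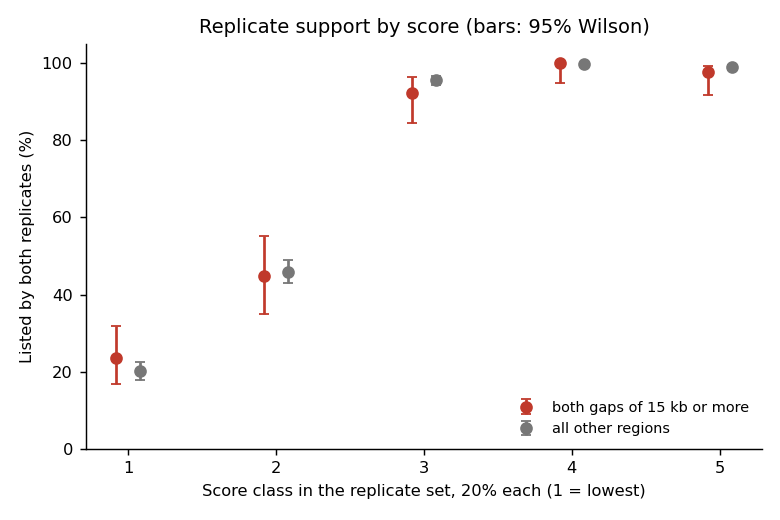
Share of replicate-set regions found in both replicates (%) in each 20% class of the score, for 444 regions with both gaps of 15 kb or more (red) and 5724 other regions (grey), with 95% Wilson intervals. The shares are 23.5% (red) and 20.2% (grey) in the lowest class and 97.6% and 99.0% in the highest.

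Where both replicates listed an isolated region, they gave it like scores and edges. Over the 296 regions, the difference of replicate 1 minus replicate 2 had a median of 0.031 and an SD of 0.15 on the log2 scale, and replicate 1 was higher for 170 (57.4%). In the 4152 other regions found in both, the median difference was 0.062 with an SD of 0.15, and replicate 1 was higher for 67.8%. The difference was at most 0.1 for 160 isolated regions (54.1%) and for 48.8% of the others. Across the isolated regions, Spearman's rho between the replicate scores was 0.94 and Pearson's r 0.95, beside 0.93 and 0.94 across the others. These are correlations across regions of the same libraries, given as a description. For the 271 isolated regions with a single region in each replicate, the starts lay a median of 101 bp apart and the ends 83 bp, beside 118 and 116 bp for 3503 others.

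**Figure D3:**
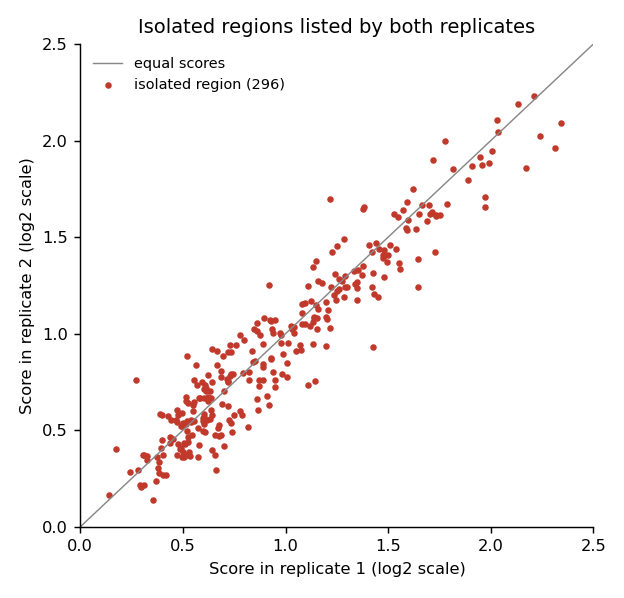
Log2 score in replicate 1 (x) and replicate 2 (y) of the 296 isolated regions found in both, with the line of equal scores. The points follow the line with a Pearson r of 0.95, and the region farthest from it on 3R has 1.43 in replicate 1 and 0.93 in replicate 2.

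Of the 4 largest disagreements between the replicates, one came with a region that replicate 2 alone divided, and another with a region that both divided. The region on 3R from 8326850 to 8337216 scored 1.43 in replicate 1 and 0.93 in replicate 2, where it was listed in 2 pieces. On 2L from 17558064 to 17562610 the order was the other way, with 0.27 in replicate 1 and 0.76 in replicate 2. On X from 20105962 to 20128956 the scores were 1.22 and 1.70, in 2 and 3 pieces. The scored pieces, from 20105959 to 20119360 in replicate 1 and from 20120969 to 20128901 in replicate 2, share no base, so these scores belong to different parts of the region. The region on 2L from 12973562 to 12976562 scored 1.64 and 1.24 as a single piece in each. In all, 11 isolated regions were divided in replicate 1 and 21 in replicate 2. The score of the set was never above both replicate scores for the 296 regions, and it was below both for 153 of them (51.7%), beside 54.6% of the other regions found in both. How the authors combined the replicates is not given in the sources used here.

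The most remote regions were a mixed group. The region with the longest shorter gap lay on 3L from 24020792 to 24024150 and was 3.36 kb wide. It had no listed region for 200 kb on one side and 288 kb on the other. Its score was 1.55 in the set, and 1.55 and 1.60 in the replicates. Its neighbour on 3L from 24223934 to 24225808, across the same 200-kb gap, was 1.88 kb wide and scored 0.31, with 0.48 in replicate 1 and no region in replicate 2. A strong and a weak region thus bordered the same stretch without a listed region. They lay at 97.9% and 98.7% of the length of 3L, near the end of the arm sequence.

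A similar pair on 2L was weak on both sides. The regions from 17747234 to 17750464 and from 17963020 to 17964522 had shorter gaps of 157 and 149 kb, scored 0.25 and 0.092 in the set, and were found in replicate 1 alone, with 0.47 and 0.15. On X, the region from 20526214 to 20534148 bordered the longest gap of the 6 arms, 364 kb, and scored 1.38 in replicate 1 and 1.64 in replicate 2, where it was divided. Among the 8 regions with the longest shorter gaps, the others were found in both replicates. They lay on 3L from 10080334 to 10083066 (0.62 and 0.55), on 3L from 17260404 to 17262398 (0.38 and 0.36), and on 2L from 14849014 to 14852324 (0.93 and 1.03), where the values are the scores of replicates 1 and 2.

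Beyond the limit of 15 kb, more distance went with no steady change in score or width. The median score was 0.70 in 118 regions with a shorter gap of 15 to 20 kb, 0.58 in 110 with 20 to 30 kb, 0.74 in 82 with 30 to 50 kb, 0.57 in 49 with 50 to 100 kb, and 0.71 in the 10 most remote. The median width was 3069, 2987, 2790, 2693 and 3088 bp in the same order. The share found in both replicates was 86.4%, 73.6%, 76.8%, 87.8% and 70.0%. Spearman's rho of the shorter gap was -0.056 with score and -0.062 with width across the 369 regions.

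**Figure D4:**
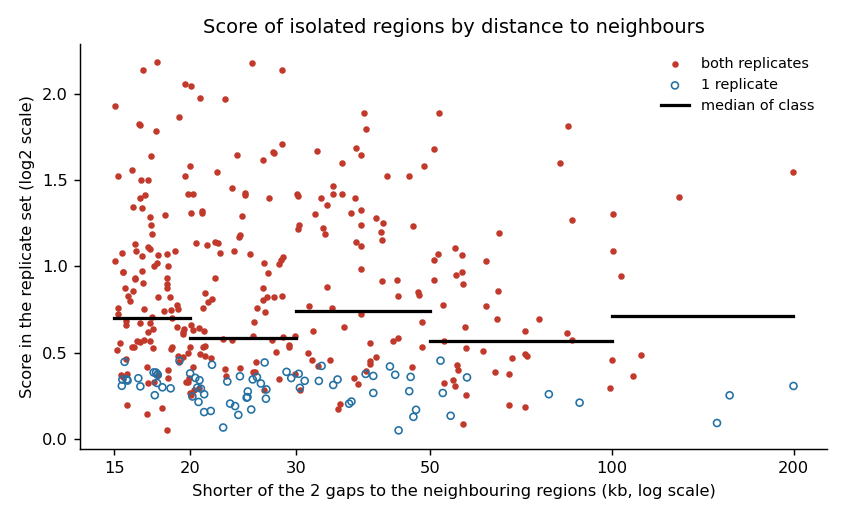
Shorter of both gaps (kb, log scale) against log2 score in the replicate set for 369 isolated regions, found in both replicates (red) or in 1 (open blue), with the median of each distance class as a black line. The class medians stay between 0.57 and 0.74, and scores above 1.5 occur both near the limit and at 200 kb.

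The highest-scoring isolated regions were strong in both replicates and very different in width. The highest, 2.18, lay on 3R from 17120644 to 17125094, was 4.45 kb wide and scored 2.34 in replicate 1 and 2.09 in replicate 2. The next, also 2.18, was the widest isolated region, on X from 12605346 to 12658924, and scored 2.21 and 2.23. It spanned 53.6 kb in the set and 50.9 ± 1.51 kb in the replicates (SD, n = 2). No region was listed for 25.3 kb before it and 123 kb after it. On the other side of that 25.3-kb gap lay another of the highest, on X from 12547030 to 12580010, 33.0 kb wide with 2.24 and 2.03. The broad pair thus formed separate units with no region listed between them in the set.

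The others among the 8 highest ranged from 2.81 to 13.9 kb in width. On 3L from 23730114 to 23732920 a region of 2.81 kb scored 2.03 and 2.11, with no listed region for 288 kb on one side. Regions on 3R from 6175166 to 6185076 (2.13 and 2.19) and on X from 10156162 to 10161840 (2.31 and 1.96) were 9.91 and 5.68 kb wide. Both on 2R were broad, from 14413176 to 14427036 with 13.9 kb (2.17 and 1.86) and from 10457008 to 10467700 with 10.7 kb (2.04 and 2.04).

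Of the 6 widest, 4 lay on X. Besides the pair described above, X held a region of 47.6 kb from 6861576 to 6909186, with shorter and longer gaps of 51.6 and 86.8 kb and scores of 1.95 and 1.92, and one of 23.0 kb from 20105962 to 20128956. The remaining wide ones were on 3R, from 14731484 to 14755168 with 23.7 kb (1.72 and 1.90, in 3 pieces in replicate 2) and from 19035290 to 19055566 with 20.3 kb (1.70 and 1.62). At the other extreme, the narrowest isolated regions were each found in 1 replicate. They lay on X from 5708792 to 5709866 (1075 bp, 0.47 in replicate 1), on X from 17223862 to 17224992 (1131 bp, 0.50 in replicate 2), on 3R from 17270760 to 17271994 (1235 bp, 0.47 in replicate 1) and on 3L from 14091250 to 14092562 (1313 bp, 0.44 in replicate 1).

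The share of isolated regions varied between arms. Of regions found in a replicate, 9.13% (95% Wilson interval 7.44 to 11.2) were isolated on 2L, 7.23% (5.93 to 8.78) on 3R, 6.79% (5.41 to 8.49) on 2R, 5.87% (4.66 to 7.38) on 3L and 5.28% (3.98 to 6.97) on X. The intervals of 2L and X did not overlap, nor, by a narrow margin, did those of 2L and 3L, while 3R, 2R, 3L and X overlapped each other. These intervals treat regions as independent, whereas neighbours share a gap under the rule, so the difference between arms was not tested. Chromosome 4, which is small and largely heterochromatic, had 8 of 64, or 12.5% (6.47 to 22.8), an interval that overlaps those of all other arms. With a minimum gap of 20 kb, 1.56% were left there, the lowest share of the 6 arms.

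Isolated regions on X and chromosome 4 had higher scores than the other regions of their chromosome, and those on 2R, 3L and 3R had lower scores. On X the median score of isolated regions was 1.20 (replicate 1) and 1.18 (replicate 2), whereas others found in a replicate had 1.05 and 1.00. On 2R it was 0.64 and 0.67, beside 0.91 and 0.88. The difference of isolated minus other was 0.16 ± 0.023 on X, 0.30 ± 0.0070 on 4, -0.24 ± 0.044 on 2R, -0.11 ± 0.069 on 3R and -0.071 ± 0.036 on 3L (SD, n = 2 replicates). On 2L it was -0.082 in replicate 1 and 0.011 in replicate 2, so that arm had no common direction.

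Width moved the same way in the replicates. On X, isolated regions were wider by 1106 bp in replicate 1 and 966 bp in replicate 2, with medians of 4944 and 4572 bp. In the set, the difference on X was smaller, 257 bp (4424 and 4167 bp). The set and the replicates differ in the isolated regions counted, and the cause of the smaller difference was not tested. On chromosome 4 they were wider by 1519 and 1374 bp. On the remaining arms they were narrower, from -433 to -729 bp in replicate 1 and from -363 to -754 bp in replicate 2. These contrasts rest on 40 isolated regions on X in replicate 1, 42 in replicate 2 and 46 in the set, and on 8 on chromosome 4, and the difference between arms was not tested.

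**Figure D5:**
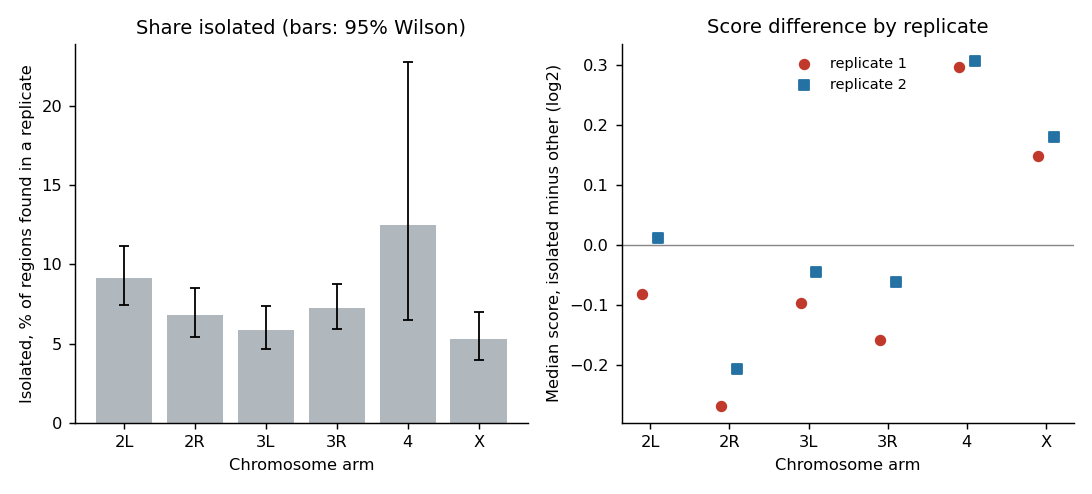
Left, regions found in a replicate that are isolated on each arm (%), with 95% Wilson intervals. Right, median log2 score of isolated minus other regions on each arm in replicate 1 (circles) and replicate 2 (squares), which lies above 0 on 4 and X in both replicates and below 0 on 2R, 3L and 3R.

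Each of the 8 isolated regions of chromosome 4 was found in both replicates, a share not set beside that of the other regions there. The highest of the 8, from 148216 to 158678, was 10.5 kb wide and scored 1.82 and 1.85 in replicates 1 and 2. Next came the region from 1045394 to 1054494 with 1.63 and 1.54, and that from 977210 to 982722 with 1.48 and 1.41, which face each other across a gap of 62.7 kb. Around 1.0 lay those from 175144 to 178556 (1.08 and 1.11), from 377510 to 382092 (1.03 and 1.02) and from 923712 to 927222 (0.95 and 1.07). The weakest were the regions from 1180894 to 1183482 (0.69 and 0.78) and from 400484 to 402232 (0.44 and 0.46). Apart from the region at 977210, their shorter gaps were between 15.5 and 18.4 kb, so these regions stand close to the limit.

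Toward the centromere, isolated regions made up a larger part of the list on 2L and 3L. The 10% of the arm sequence nearer the centromere is the end of 2L, 3L and X and the beginning of 2R and 3R, by the usual orientation of the arms. There, 16 of 75 regions found in a replicate were isolated on 2L (21.3%, 95% Wilson interval 13.6 to 31.9) and 12 of 51 on 3L (23.5%, 14.0 to 36.8), beside 8.06% and 5.06% over the rest of these arms. On 2R it was 10 of 70 (14.3%, 7.95 to 24.3) beside 6.24%, and on X 5 of 48 (10.4%, 4.53 to 22.2) beside 4.98%. On 3R the order was turned, with 6 of 133 (4.51%, 2.08 to 9.49) beside 7.54%. In steps of 10% over all regions of the set, the share peaked at this end on 2L (19.8%), 3L (21.1%) and X (9.09%). On 2R, step 8 from the arm start had 13.6%, beside 12.3% at this end. On 3R the step farthest from this end had the highest share (11.1%). Counting all regions of the set, this end of 3L held 57, beside 102 to 169 in each other 10% of that arm. On 2L it held 81, beside 76 to 136. The rule itself favours sparse stretches, and this was not separated from position.

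The scores of isolated regions nearer the centromere stood in no common order to those of isolated regions elsewhere. Pooled over the 5 large arms, which differ in both scores and shares, the 49 isolated regions there scored 0.93 (replicate 1) and 0.98 (replicate 2) at the median, and the 312 isolated regions elsewhere 0.73 and 0.76. The other regions of the same ends had 0.87 and 0.85. By arm, the medians nearer the centromere and elsewhere in replicate 1 were 0.98 and 0.70 on 2L, 1.25 and 0.62 on 3L and 0.78 and 0.64 on 2R. The order was turned on X (1.01 and 1.22) and on 3R (0.59 and 0.72), and replicate 2 had the same order on each arm. On 3L the 12 isolated regions had medians of 1.25 and 1.24, beside 0.68 and 0.67 for the other regions there, whereas on 3R the 6 isolated regions had 0.59 and 0.58 beside 0.90 and 0.88. Both replicates found 46 of the 49 (93.9%), and 242 of the 312 (77.6%). The shares of the other regions of these ends were not counted, and the cause of this difference was not tested.

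Isolated regions could follow one another. Of the 369, 184 (49.9%) had another isolated region as a direct neighbour, a share that the rule raises, because each direct neighbour already has a long gap on one side, and that was not compared with other regions. The 369 formed 259 runs, of which 185 held 1 region, 50 held 2 and 24 held 3 or more. The longest runs had 5 regions. The run on 2L from 17558064 to 18115978 spread 5 regions with scores from 0.092 to 0.62 over 558 kb, and 3 of them were found in both replicates. The run on 2L from 22689094 to 22920228, near the end of the arm sequence, held 5 regions over 231 kb with scores from 0.30 to 1.65, all found in both. The run on 2R from 15713526 to 15889084 held 5 regions over 176 kb with scores from 0.14 to 0.53, of which 4 were found in both. The 511 neighbours that were not among the 369 were 2789 bp wide and scored 0.60 at the median. Of these 511, 94 (18.4%) were found in neither replicate. Over all 6168 regions, 840 were found in neither and 86.4% in either. The rule raises the share among these neighbours, because every region found in neither replicate falls outside the 369.

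On both sides of the 15-kb limit, scores varied from region to region. Just inside were regions on X from 1902824 to 1909628 (shorter gap 15033 bp, score 1.93), on 2R from 11177044 to 11180108 (15051 bp, 1.03), on 3R from 9258868 to 9261298 (15151 bp, 0.52) and on 2L from 21657318 to 21660138 (15189 bp, 0.72). Just outside were regions on 3L from 21964252 to 21968814 (14997 bp, 0.79), on 2R from 19656434 to 19658458 (14891 bp, 0.41), on 2R from 4297758 to 4300902 (14851 bp, 0.86) and on 2R from 8086820 to 8089000 (14849 bp, 0.48).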

How the data were processed

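Enriched regions of 2 ChIP replicates and of the replicate set were used as deposited, on FlyBase release 5 per the file headers. Each region has 1 signed score. The scores are the authors' values on a log2 scale, and this base was read from the deposited values: differences from the most common score of a list were logs of whole-number ratios (denominator up to 400, numerator up to 1600, relative tolerance 1e-09) for 34.6% to 52.9% of scores with base 2 and at most 0.479% with base e or 10. Per the submitters' processing notes, Bowtie 0.12.7 was among the tools, its role not given in the sources used here, nor are the region caller, its threshold or the use of input.

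Gaps are the bases between neighbouring enriched regions of an arm, and overlap means at least 1 bp. A replicate's score or width is that of its region sharing most bases. Scripts ran on Python 3.11.15 with pandas 2.3.3, scipy 1.17.1 and numpy 2.4.6, and the rule and overlap counts were tested on simulated data. The regions and lists were chosen with earlier results of these data known. Since the rule used position and overlap in all 3 lists, comparisons are descriptions without a test, with SD over 2 replicates or 95% Wilson intervals. Named are the 8 most remote, 8 highest, 6 widest and 4 narrowest regions, the 4 with the largest replicate difference, 4 on each side of the limit, all on chromosome 4, and, chosen after their values were seen, the 3 longest runs. Alternatives were other gaps, neighbours, overlaps and comparison sets. Genes and sequences were not analysed here.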

Additional observations from a re-analysis of the deposited data

Results flagged for a closer look

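The difference in median score between isolated and other regions pointed in opposite directions on different chromosomes, in both replicates. It was 0.16 on X and 0.30 on chromosome 4, and -0.24 on 2R, -0.11 on 3R and -0.071 on 3L, as means of 2 replicates on the log2 scale. The difference between chromosomes was not tested, since the choice of the regions used the same lists. On X, 11 of 46 isolated regions were among the highest 10% of scores on the arms, and 7 of 70 on 2R. The shares of the other regions of X and 2R were not counted, so these counts do not bear on the contrast. In the set, the others found in a replicate also had a higher median score on X (0.89) than on 2R (0.76).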

How the results depend on the processing

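No paired analysis was possible because the replicate numbers are shared with input samples that have no region list here. The number of isolated regions was 594 with a minimum gap of 10000 bp, 251 with 20000 bp, 141 with 30000 bp, and 603 when gaps were taken among the higher-scoring 50%; it was 326 to 339 with either replicate left out. The difference in median width, isolated minus other, was -202 bp in the main comparison, -302 bp at 30000 bp, -726 bp against others found in a replicate, -874 bp among the higher-scoring 50% and -1060 bp after regions under 1000 bp apart were joined, an alternative chosen after seeing the data. It turned to 457 bp when both replicates were required and to 26 to 176 bp with either replicate left out, where weak isolated regions pass to the other side by construction. The difference in median score was 0.023. At 10000, 20000 and 30000 bp it was 0.0060, -0.027 and 0.0063. It turned to -0.092 against others found in a replicate, -0.041 after joining and -0.038 at widths up to 2000 bp. It rose to 0.13 above 8000 bp, 0.21 with both replicates required and 0.10 to 0.14 with either left out. The cause of the change at 20000 bp was not tested. Among regions found in a replicate, the share found in both differed by -3.51 percentage points. It differed by -4.34 at 10000 bp, -6.50 at 20000 bp and -3.43 at 30000 bp. By score, it differed by 2.63, 2.28, 2.47, 0.172 and 0.175 from the lowest to the highest 20% class, and by 0.244 among the higher-scoring 50%. These classes have a narrower base than the regions with long gaps counted by class in the report, which include those found in neither replicate. With a gap of 10000 bp, the isolated share was 13.1% for 2L, 11.2% for 2R, 10.2% for 3L and 11.6% for 3R, while X had 8.84% and chromosome 4 had 21.9%. With 20000 bp, 2L had 5.80%, 2R 4.75%, 3L 4.66%, 3R 4.56%, X 4.02% and chromosome 4 1.56%. Over the 296 isolated regions found in both replicates, the median of the mean replicate score, 0.87, was 0.86 when all pieces were weighted. In either replicate alone, these 296 gave 0.88. All isolated regions listed in a replicate gave 0.75 in replicate 1 (339 regions) and 0.79 in replicate 2 (326 regions). Without read counts, weak regions cannot be weighed by depth.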

Other observations

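Among the 75 regions with both gaps of 15 kb or more that neither replicate listed, the median width was 1305 bp and the median score 0.35. The 765 other regions that neither replicate listed were similar, with medians of 1275 bp and 0.34, and their scores reached 3.26. A pair of the 75 scored far above the rest of them. The region on 3L from 23515034 to 23516034 scored 2.58 at a width of 1001 bp. The region on 3R from 3533326 to 3535326 scored 1.88 at 2001 bp. No region of either replicate list was narrower than 1301 bp. The next highest score was 0.59, on X from 11633494 to 11634524. The highest 20% of scores on the arms held 85 regions with long gaps, of which these were the pair that no replicate listed. Of the 1149 regions without such gaps in that class, 1140 were found in a replicate. They were singled out once their values were known.

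The 3 regions of the set named as depleted lay outside the gaps next to isolated regions.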
